A study of Mus musculus with 2 samples.

Results

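The regions described here are 649 accessible sites that were strong in early thymic progenitors lacking the E proteins E2A and HEB and that had no counterpart in the wild-type list. The regions were chosen by measured values of both lists. A region was included if it lay on an autosome, if its score was at or above the 70th percentile of the double-knockout list (13.5), and if no wild-type peak lay within 500 bp of it, edge to edge. Of 69896 double-knockout peaks, 20658 met the first 2 conditions, and these are called strong below. The 649 regions were 3.14% of them (exact 95% interval 2.91 to 3.39%). Membership rests on the score and on the wild-type list, so these counts describe the regions and test nothing.

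Open chromatin was mapped by ATAC-seq, an assay in which a transposase cuts accessible DNA and tags the fragments for sequencing. Progenitors of C57BL/6 mice were sorted from fetal thymus as Lin-, CD4-, CD8-, CD44+, CD25- and ckit+ cells, 1 library per genotype. The wild-type library gave 85764 peaks. The other library came from E2Afl/flHEBfl/flIL7RCre animals, whose floxed alleles are deleted by Cre made from the Il7r locus, and its cells were sorted as YFP+ in addition, a gate that the wild-type sort did not have. Both groups are fetal thymus, and the labels give no age. Because there was 1 library per genotype, no difference below has a replicate check and none was tested between genotypes. Genotype, the YFP gate and any difference between the libraries themselves cannot be told apart. The deletion and the cell type could not be checked against marker genes from peak lists without an annotation of their genome build, so the labels are used as given.

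The E proteins, of the basic helix-loop-helix family, bind DNA at E-box sequences as dimers, and Id proteins hold them off DNA by pairing with them. In the thymus, E proteins are known for driving the T cell programme, including Notch-responsive and antigen receptor genes. Id2, their inhibitor, is known for its need in innate lymphoid cells and natural killer cells. The question of the series, from its title, is how this balance steers cells between innate and adaptive lymphoid fates.

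The regions were moderately strong. Their median score, the authors' value per peak, was 17.3 (quartiles 14.9 and 21.3), against 25.3 for all strong double-knockout peaks (17.7 and 40.6). The strongest had a score of 51.7, while the double-knockout list reached 247.5. The share of peaks without a wild-type counterpart fell with the score. It was 6.46% (450 of 6971) between the 70th and 80th percentile, 2.67% (182 of 6804) between the 80th and 90th, 0.440% (15 of 3408) between the 90th and 95th, and 0.0721% (2 of 2773) between the 95th and 99th. Of the 702 peaks in the top 1%, 0 lacked a wild-type peak within 500 bp (exact upper limit 0.524%). Over autosomal double-knockout peaks of any score the share was 16.4% (11155 of 68206). Each of those 702 strongest sites of the mutant progenitors therefore had a wild-type peak close by.

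**Figure D1:**
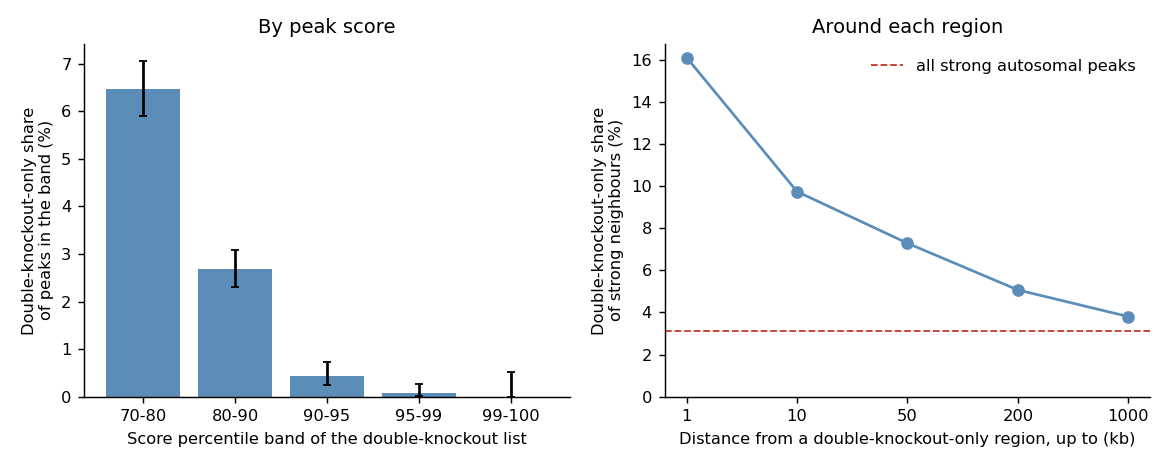
Left, the share of double-knockout peaks with no wild-type peak within 500 bp (%) in each score band of the double-knockout list, with exact 95% intervals. Right, among strong peaks up to a given distance (kb) from a double-knockout-only region, the share that were such regions themselves, with the share over all strong autosomal peaks as a dashed line. The left panel falls from 6.46% to 0, and the right panel falls from 16.1% within 1 kb to 3.81% within 1000 kb.

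At the edges of the rule, 12 regions sat exactly at the threshold score of 13.5, and the 5 of these nearest to a wild-type peak lay 514 to 995 bp from it. Just below the threshold, 10 autosomal peaks with a score of 13.4 met the distance condition. On the distance side, the 5 closest regions lay 502, 504, 505, 505 and 508 bp from a wild-type peak, and the 5 strong peaks just within the limit lay 492, 493, 494, 494 and 497 bp away. A further 1669 strong peaks did not overlap a wild-type peak but lay within 500 bp of one. There was no gap in the distances at the limit, so the set has no natural border there.

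Most of the regions were neighbours of sites that were open in the wild type. The median distance to the nearest wild-type peak was 1.75 kb (quartiles 0.865 and 3.18 kb, n = 649). Of the 649, 596 (91.8%, exact interval 89.5 to 93.8%) had a wild-type peak within 5 kb, 53 did not, and 25 had none within 10 kb. The distances broke off at 5 kb. The numbers of regions per 1 kb step were 98 at 2 to 3 kb, 71 at 3 to 4 kb and 58 at 4 to 5 kb, but 8 at 5 to 6 kb and 9 at 6 to 7 kb. Weaker double-knockout peaks without a wild-type peak within 500 bp showed no such break, with 694 at 4 to 5 kb and 671 at 5 to 6 kb out of 10506.

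A step at the same distance was present within each list. Among neighbouring autosomal peaks of the double-knockout list, 2287 gaps measured 4 to 5 kb and 3268 measured 5 to 6 kb. In the wild-type list these counts were 3268 and 4445. Gaps just under 5 kb were thus fewer than gaps just over it in both lists, while most of the regions lay at the distances where the lists' own gaps were fewer. Strong wild-type peaks without a double-knockout peak within 500 bp also dropped there, from 161 at 4 to 5 kb to 67 at 5 to 6 kb. The part of this spacing step in the membership of the 596 regions within 5 kb was not tested. It touches each count below that includes them.

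**Figure D2:**
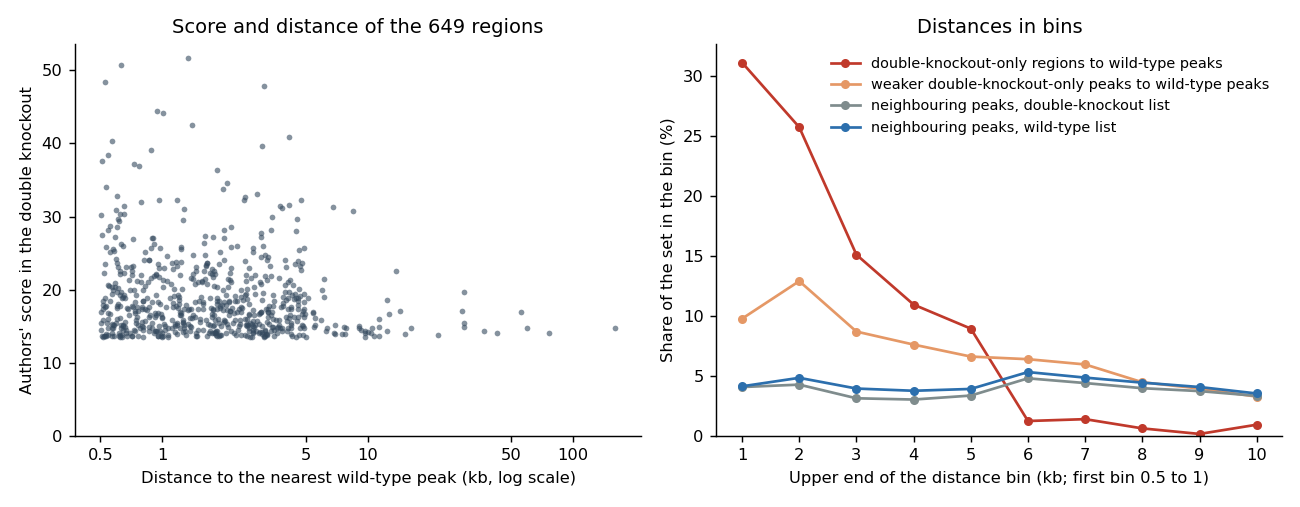
Left, the authors' score of each of the 649 regions against its distance to the nearest wild-type peak (kb, log scale). Right, the share (%) of 4 sets of distances in each bin up to 10 kb: the regions and the weaker double-knockout-only peaks to wild-type peaks, and neighbouring peaks within each list. The regions fall from 58 at 4 to 5 kb to 8 at 5 to 6 kb, where both lists' own gaps become more frequent.

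The wild-type neighbours were strong themselves. Taken over all regions, the nearest wild-type peak had a median score of 22 and a median percentile of 85.9 in its list. For 485 of the 649 regions (74.7%, 71.2 to 78.0%) that neighbour overlapped a double-knockout peak, so that the neighbouring site was called in both genotypes. Over all autosomal wild-type peaks, which had a median percentile of 50.2 and so were weaker than these neighbours, 60.9% did. For the other 20009 strong double-knockout peaks, the nearest wild-type peak beyond 500 bp overlapped a double-knockout peak in 67.2% (66.6 to 67.9%) and lay at a median of 6.33 kb. In 112 of the 649 cases (17.3%) the nearest wild-type peak had no double-knockout peak within 500 bp, against 32.7% of all autosomal wild-type peaks. In the remaining cases a double-knockout peak lay within 500 bp of the neighbour without overlapping it. A mutant-only site beside a wild-type-only site was thus the less common arrangement.

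Where the neighbour was shared, the region was usually the weaker of the pair. In 115 of 485 cases (23.7%) it scored above the shared neighbour within the double-knockout list. The shared neighbours themselves held nearly equal ranks in both lists, with median percentiles of 89.2 (wild type) and 87.6 (double knockout). Of them, 188 (38.8%) ranked higher in the double-knockout list, against 35.5% of all shared autosomal peaks. The regions were also close to other double-knockout peaks. A double-knockout peak of any score lay within 5 kb of 88.4% of them (574 of 649, 85.7 to 90.8%), against 48.4% (47.7 to 49.1%) of the other strong peaks.

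Between 2 neighbouring wild-type peaks, the regions lay towards the ends. The distance to the nearer wild-type peak was a median 17.1% of the interval between the flanking wild-type peaks, and it was below 25% of the interval for 417 of the 649 (64.3%). For weaker double-knockout-only peaks it was below 25% in 49.9% of cases. The 649 regions occupied 623 such intervals, with a median length of 11.5 kb, and 444 intervals held no other double-knockout peak. At most 6 double-knockout peaks were found in 1 interval, at chr14:64225642-64300482, which held 1 region among them.

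The 53 regions more than 5 kb from a wild-type peak were weaker than the rest. Their median score was 14.8 against 17.5 for those within 5 kb, and 40 of them also had no double-knockout peak within 5 kb. Chromosome 11 held 8 of them among its 42 regions and chromosome 6 held 7 among 42. Chromosome 12 held 4 among 15, a larger share, and over all autosomes the share was 8.17% (53 of 649). The strongest was at chr11:58143796-58143946, with a score of 31.3 and a distance of 6.78 kb, followed by chr6:127101863-127102013 (score 30.8, 8.47 kb) and chr12:119629357-119629507 (score 22.5, 13.8 kb). The split at 5 kb was chosen after the break in the distances had been seen.

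The 8 regions farthest from any wild-type peak all had low scores. The most distant, at chr12:26549060-26549210, scored 14.8 and was 162 kb from the nearest wild-type peak, with 1 other double-knockout peak within 50 kb. Next came chr11:30472654-30472804 (score 14.1, 76.3 kb), chr14:22179284-22179434 (score 14.7, 60.1 kb) and chr5:17159538-17159688 (score 16.9, 55.7 kb). The remaining 4 lay 29.6 to 42.8 kb away, on chromosomes 6, 5, 8 and 11, with scores of 14 to 15.5. None of the 8 was among the strongest 20% of the double-knockout list.

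The 12 regions with the highest scores were all within 5 kb of a wild-type peak. The leading one, at chr2:3635252-3635402, had a score of 51.7 and lay 1.33 kb from a wild-type-only peak with a score of 23.8. The region at chr18:67884671-67884821 scored 50.7, and its wild-type neighbour, 627 bp away, was shared, at percentile 97.3 of the wild-type list and 97.8 of the double-knockout list. The region at chr6:128788966-128789116 scored 48.4 and lay 525 bp from a wild-type peak that overlapped no double-knockout peak. The 12 lay on 9 autosomes, and the nearest wild-type peak was shared for 6 of them.

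The others of the 12 covered a range of settings. The region at chr2:58006223-58006373 (score 47.8) was 3.14 kb from a shared site that stood at percentile 95.3 of the wild-type list but 87.4 of the double-knockout list. On mm9 this is the place of Cytip, which encodes a cytohesin-binding protein of blood cells, and a second region, at chr2:58014455-58014605, lay beside it with a score of 24.7. The region at chr1:88421939-88422089 (score 44.2) lay 1.01 kb from one of the strongest shared sites, at percentiles 99.8 (wild type) and 99.9 (double knockout). The region at chr16:42876352-42876502 (score 40.4) lay 566 bp from a wild-type peak with a score of 108, which did not overlap a double-knockout peak. Another double-knockout peak lay 0.755 kb from this region. Lack of overlap is not loss of the site, since a double-knockout peak can lie close by without overlapping. Of the remaining 6, those at chr3:151874867-151875017 (score 44.4), chr8:129372734-129372884 (39.1) and chr4:141101963-141102113 (38.4) lay within 1 kb of a shared site. Those at chr14:45947885-45948035 (42.5), chr1:64533103-64533253 (40.9) and chr2:158545090-158545240 (39.6) lay 1.39, 4.15 and 3.06 kb from a wild-type peak that overlapped no double-knockout peak.

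The regions were spread over all 19 autosomes, from 15 on chromosomes 12 and 19 to 61 on chromosome 1. As a share of the strong peaks, chromosome 18 stood highest with 5.61% (35 of 624, 3.94 to 7.71%), followed by chromosome 1 with 4.38% (61 of 1393, 3.37 to 5.59%). Chromosome 7 held 2.15% (32 of 1488, 1.48 to 3.02%) and chromosome 12 held 1.92% (15 of 782, 1.08 to 3.14%). The intervals of chromosomes 18, 1 and 7, among 19 compared and not adjusted for their number, did not include the overall 3.14%. The intervals treat neighbouring peaks as independent and cover counting error only. Along the chromosomes, cut into 5 equal parts of the span of peaks, the part with the highest coordinates held 3.62% (212 of 5853, 3.16 to 4.13%), and the other 4 held 2.87 to 2.99%.

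**Figure D3:**
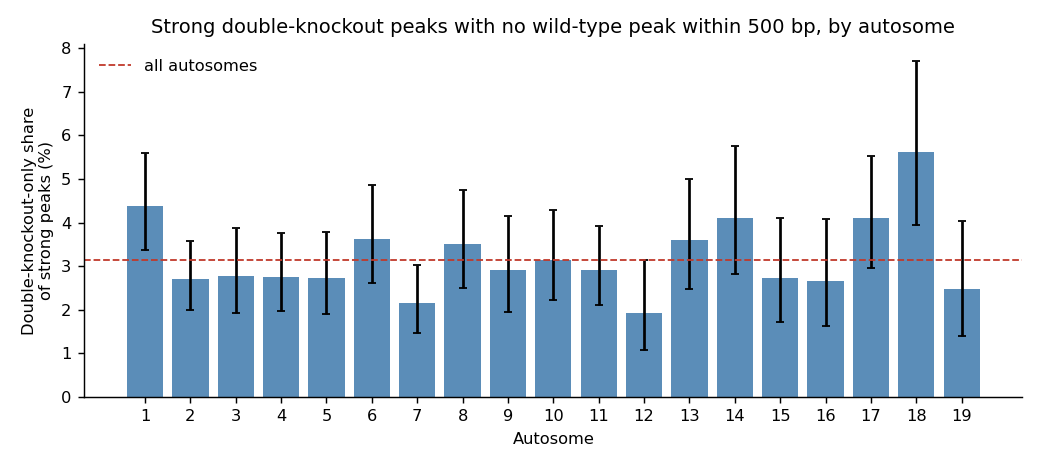
Bars show, for each autosome, the share of strong double-knockout peaks (%) with no wild-type peak within 500 bp, with exact 95% intervals, and the dashed line is the share over all autosomes (3.14%). Chromosome 18 is highest at 5.61% and chromosome 12 lowest at 1.92%, and most intervals include the overall share.

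The same rule applied in the other direction gave more regions. Strong wild-type peaks, at or above the 70th percentile of their own list (12.6), had no double-knockout peak within 500 bp in 1847 of 25359 cases, or 7.28% (6.97 to 7.61%). These lay farther from the other list, with a median distance of 3.33 kb, and 66.9% (64.7 to 69.0%) had a double-knockout peak within 5 kb, against 91.8% for the mutant-only regions and wild-type peaks. The wild-type list is the longer one, so the 2 counts and distances are not on an equal footing.

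Strong peaks near a region were themselves regions more often than strong peaks in general. The median distance to the nearest other region was 658 kb (quartiles 89.8 and 2117 kb). Another lay within 50 kb of 133 of the 649 (20.5%, 17.5 to 23.8%). Among strong double-knockout peaks within 1 kb of a region, 16.1% (28 of 174 ordered pairs) were regions as well. Within 10 kb this share was 9.74%, within 50 kb 7.29%, within 200 kb 5.07% and within 1000 kb 3.81%, against 3.14% overall. At the shortest distances this share is partly set by the rule, since peaks that close have the same wild-type peaks around them. The 3.14% also counts strong peaks that have no close neighbour. A double-knockout peak lay within 5 kb of 88.4% of the regions but of 48.4% of the other strong peaks. The shares are thus not matched for peak density, and the part of density in them was not tested. Pairs are not independent, so these shares carry no interval.

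Joining regions with gaps of up to 50 kb gave 516 single regions, 45 pairs, 9 groups of 3 and 4 groups of 4. In 13 of the 45 pairs both regions lay within a span of 2 kb, and none of these 13 spans held a wild-type peak. The rule bars wild-type peaks within 500 bp of each region, so the shorter of these spans could not hold one. The shortest span was 0.498 kb, close to the smallest that 2 peaks of 151 bp can take in these lists. Such a pair may mark 1 broad open region or 2 separate sites, which a list of fixed-width peaks does not separate.

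**Figure D4:**
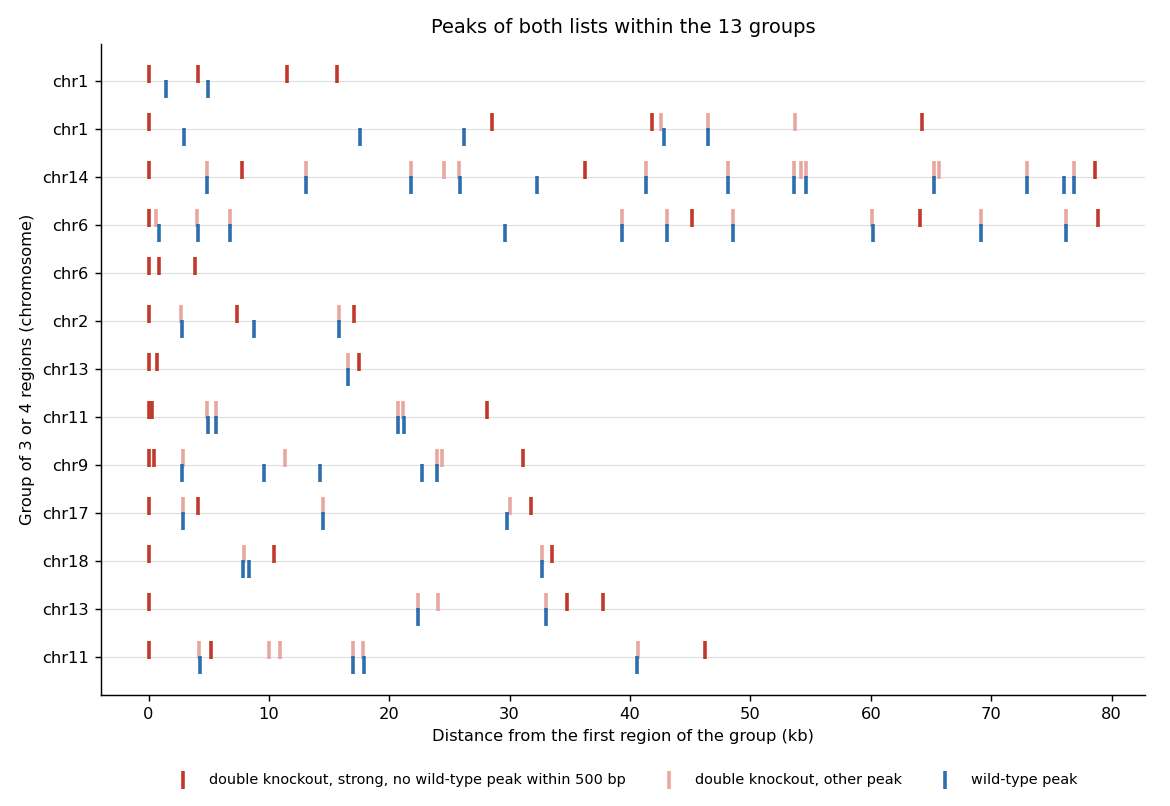
Each line is 1 of the 13 groups of 3 or 4 regions, labelled by chromosome, with the distance from its first region (kb) on the horizontal axis. Upper ticks are double-knockout peaks (dark red for the regions, light red for other peaks) and lower ticks are wild-type peaks, and in 12 of the 13 groups wild-type peaks lie between the regions.

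One group of 4 lay on chromosome 6 (chr6:128710123-128789116) inside the natural killer gene complex, at the Klrb1 and Clec2 genes that encode lectin-like receptors of natural killer cells and their ligands. Its 4 regions scored 37.2, 25.1, 14.3 and 48.4. In this order, they lay 732, 1908, 3821 and 525 bp from the nearest wild-type peak. Those wild-type peaks were at percentiles 92.1, 97.7, 6.84 and 93.8 of their list. The one beside the first region lay 98 bp from another double-knockout peak, so the 2 highest-scoring regions were close to strong wild-type peaks. The span also held 9 other double-knockout peaks, of which 8 overlapped a wild-type peak, and 10 wild-type peaks. The sites called in both genotypes differed in rank as well. The one at chr6:128779316-128779466 was at percentile 78.1 of the double-knockout list and 11.7 of the wild-type list, and the one at chr6:128749489-128749639 at 98.7 and 93.7. The site at chr6:128714113-128714263 was near the top of both lists, at 99.5 and 99.8. Sites in this span were thus already accessible in the wild-type progenitors. The regions scoring 25.1 and 14.3 lay between its shared sites, and the other 2 marked the ends of the span.

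A group of 3 on chromosome 13 (chr13:19431628-19449242) lay at the T cell receptor gamma locus, whose genes encode 1 chain of the receptor of gamma delta T cells. Its regions scored 15, 14 and 16.8. The first 2 were 9.10 and 9.76 kb from the nearest wild-type peak. The third lay 734 bp from a shared site that was at percentile 90.7 of the double-knockout list and 83.2 of the wild-type list. No other wild-type peak was listed in the 17.6 kb span.

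A group of 3 on chromosome 9 (chr9:32314713-32345989) lay at Fli1, which encodes an Ets-family factor of blood stem and progenitor cells. Its regions scored 17.6, 18.2 and 27 and lay 718, 1130 and 897 bp from wild-type peaks. This span held 5 wild-type peaks, 3 of them with no double-knockout peak within 500 bp. Mutant-only and wild-type-only sites therefore stood in the same span.

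The remaining groups that the naming rule reached have no gene given here, since a gene was named only where its place on mm9 was taken as certain. The genes named therefore do not describe the groups as a whole. The tightest was at chr6:140490903-140494916, with 3 regions (scores 15.2, 23.3 and 22.3) in 4.01 kb and no other peak of either list between them. Chromosome 1 held 2 groups of 4. In the first, chr1:129200935-129216767, the double-knockout list had only the 4 regions (scores 14.5 to 19.9) and the wild-type list 2 peaks, neither within 500 bp of a double-knockout peak. The second, chr1:169172425-169236866, had 7 double-knockout and 5 wild-type peaks, with 1 site called in both.

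The last group of 4, on chromosome 14 (chr14:122387015-122465813), stood in a dense array of 18 double-knockout and 13 wild-type peaks over 78.8 kb, with 11 of the other double-knockout peaks shared. Its strongest region, at chr14:122387015-122387165, scored 34.6, and the nearest wild-type peak, 2.06 kb away, overlapped no double-knockout peak. On its other side, 4.72 kb away, was a shared site at percentile 88.1 of the double-knockout list and 73.8 of the wild-type list. Other shared sites of this array ranked the other way, such as chr14:122428350-122428500, at 68.4 and 92.6. The group at chr2:3627944-3645139 contained the highest-scoring region of all. In the group at chr11:58115671-58143946 each of the 4 other double-knockout peaks was shared, and its 3 regions (scores 22.7, 23.5 and 31.3) were 4.44 to 6.78 kb from a wild-type peak. The group at chr17:65100682-65132625 had scores of 13.8 to 21.6.

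Several further places were picked after their values were seen, because the gene at them on mm9 is known for a role in lymphoid or progenitor cells. They illustrate the set and support no statement about it. At Zbtb16, which encodes PLZF, a zinc finger factor known for innate lymphoid precursors and innate-like T cells, 2 regions lay 2.06 kb apart. The one at chr9:48627761-48627911 scored 15.2 and was 1.78 kb from a wild-type peak, and the one at chr9:48625546-48625696 scored 14.4 and was 2.64 kb from one. Neither of those wild-type peaks overlapped a double-knockout peak. Within 50 kb of the first, the lists held 10 other double-knockout and 11 wild-type peaks, so the number of sites at this locus was about equal.

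At Itgae, which encodes the integrin chain CD103 that anchors lymphocytes in epithelia, 3 regions (chr11:72903981-72950336) scored 17.3, 15.2 and 14.5 over 46.4 kb. The other 6 double-knockout peaks of this span were 4 shared sites and 2 weak ones without a wild-type peak within 500 bp, and each of the 4 wild-type peaks was shared. At Ptch1, the receptor for Hedgehog ligands, the 3 regions (chr13:63631591-63669465) scored 18.9, 27.4 and 29.6. Of the 2 shared sites among them, that at chr13:63664606-63664756 was at percentile 94.0 of the double-knockout and 95.3 of the wild-type list. The other, at chr13:63653958-63654108, was at 6.66 and 65.8. At Mbp, which encodes myelin basic protein and the related golli proteins of blood cells, 3 regions (chr18:82695991-82729652) scored 30.2, 15.8 and 13.6.

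Single regions lay at other such genes. At Meis1, a homeobox factor of blood stem cells, the region at chr11:18857173-18857323 scored 25.2 and lay 554 bp from a shared site at percentiles 86.9 (wild type) and 75.4 (double knockout). At Dpp4, which encodes the surface peptidase CD26, the region at chr2:62232948-62233098 scored 32.2 and was 2.49 kb from the nearest wild-type peak. The main histone gene cluster of chromosome 13, whose genes are transcribed in dividing cells, held regions at chr13:23625625-23625775 (score 31), chr13:23667502-23667652 (29.5), chr13:23848722-23848872 (19.7) and chr13:23855405-23855555 (21.3). Each of these 4 had a shared site as its nearest wild-type peak, and the first stood among 25 other double-knockout and 23 wild-type peaks within 50 kb. Gene positions in these paragraphs are general knowledge of mm9 and were not looked up in an annotation of that build, so no distance to a gene or part of a gene is given.

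Wild-type peaks were the more numerous around most regions that had a majority of either list, a balance that moves with the length of the wild-type list. Within 50 kb of a region, leaving out 500 bp on either side, there was a median of 8 other double-knockout and 9 wild-type peaks. More double-knockout than wild-type peaks were found around 180 of the 649 (27.7%, 24.3 to 31.4%), and more wild-type peaks around 324 (49.9%). Around the other strong double-knockout peaks the medians were 6 and 7, and double-knockout peaks were more numerous in 24.9% (24.3 to 25.5%). In windows of 20 kb to either side the shares were 26.5% (23.1 to 30.1%) and 21.6% (21.0 to 22.1%), and in windows of 200 kb 19.4% and 18.1%. A wild-type majority in the 20 kb windows was also more frequent around the regions, at 40.7% against 36.2%. Counts were equal there for 213 of the 649 regions and 8459 of the 20009 other strong peaks. With the wild-type list cut to the length of the double-knockout list, the shares within 50 kb were 45.3% (41.4 to 49.2%) for the regions and 41.6% (40.9 to 42.3%) for the other strong peaks. Over the autosomes there were 0.815 double-knockout peaks per wild-type peak, against 0.933 in the 50 kb windows around the regions and 0.907 around the other strong peaks. The surroundings of the regions thus held more peaks of both lists. Of the 3 window sizes with the whole lists, their share with a double-knockout majority had an interval above that of the other strong peaks only at 20 kb. The 20 kb difference alone shows no tilt towards the double knockout, since wild-type majorities were more frequent there too.

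**Figure D5:**
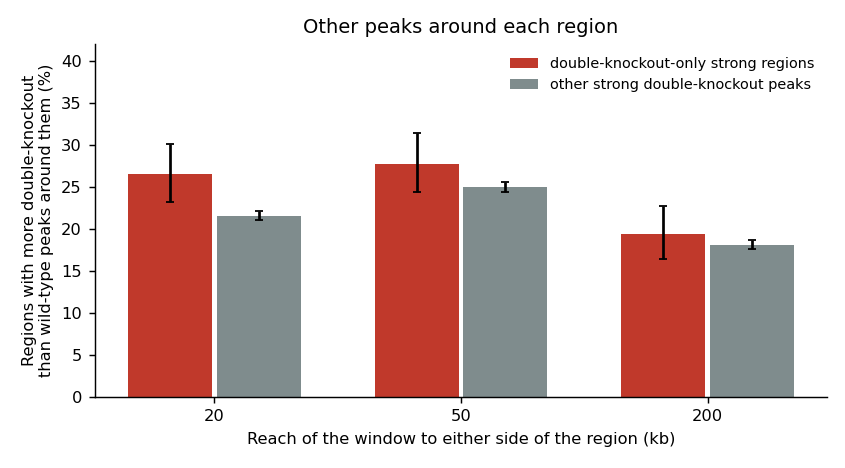
Bars show the share (%) of the 649 regions (red) and of the other 20009 strong double-knockout peaks (grey) with more double-knockout than wild-type peaks around them, for windows reaching 20, 50 and 200 kb to either side, with exact 95% intervals. The red bar stands at 26.5% against 21.6% in the 20 kb windows, and the intervals overlap at 50 and 200 kb. Wild-type majorities, not drawn, were also more frequent around the regions in the 20 kb windows (40.7% against 36.2%).

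Weaker double-knockout-only sites accompanied the regions somewhat more often than other strong peaks. Within 50 kb, 436 of the 649 (67.2%, 63.4 to 70.8%) had at least 1 double-knockout peak below the score threshold without a wild-type peak within 500 bp, against 54.7% (54.1 to 55.4%) of the other strong peaks. Because the surroundings of the regions held more peaks in all, the share among weaker peaks is the closer comparison. Of the weaker double-knockout peaks within 50 kb of a region, 28.8% (804 of 2787) had no wild-type peak within 500 bp, against 24.0% near the other strong peaks. Within 10 kb these were 31.9% (126 of 395) and 25.3%. Close to a region this share, too, is partly set by the rule, since such peaks have the same wild-type peaks around them. These shares carry no interval.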

How the data were processed

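Peak lists of 2 ATAC-seq libraries, 1 per genotype, were used as deposited. Each file holds 1 library, so peaks were called per sample. Per the submitters' processing notes, bcl2fastq 1.8.4, Bowtie and HOMER were used with build mm9, and no settings are stated there. The authors' score, in a column without a header, has no stated unit and served only for ranks and thresholds inside 1 list. Peaks are 151 bp wide, so 1 broad open region can be marked at different places. A peak caller may compare a candidate with its surroundings over a set distance, and the sources used here do not say whether this was done. Read depth is unknown.

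Coordinates are mm9, written 1-based. No genome or annotation of mm9 was used, so no sequence is printed. The members and lists were chosen with earlier results of these data known. Distances are bases between peak edges, and windows count peak centres. Intervals are exact Clopper-Pearson 95% intervals. Regions named singly were the 12 highest in score, the 8 farthest from a wild-type peak, the 5 on each side of both limits, and 10 groups of 3 or more, with exceptions marked in the text. The membership rule and the distances between the 2 lists were tested with a simulated double-knockout list, and the other steps were not. All steps were run in Python 3.11.15 with NumPy 2.4.6, pandas 2.3.3 and SciPy 1.17.1.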

Additional observations from a re-analysis of the deposited data

How the results depend on the processing

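No paired analysis was possible because each genotype had a single library, which also leaves no replicate to omit. The counts depend on both limits of the rule. With the score threshold at the 60th, 80th and 90th percentile there were 1278, 199 and 17 regions (4.62, 1.45 and 0.247% of the strong peaks), of which 27.5, 14.1 and 0% had another within 50 kb, and the median distance to a wild-type peak was 2.01, 1.42 and 0.942 kb. Excluding only overlapping peaks gave 2318 regions (11.2%, 32.4% with another within 50 kb, median 0.204 kb). A limit of 1 kb left 2.16% of the strong peaks (median 2.57 kb), and 5 kb left 53 (0.257%, 3.77% with another within 50 kb, median 9.68 kb). Against a wild-type list of equal length 3.74% lacked a counterpart (median 2.14 kb). Against its upper 50% there were 1531 (7.41%, 30.4% with another within 50 kb, median 5.76 kb). Joining at 10 kb and 100 kb put 13.3% and 25.6% beside another region. Merging close double-knockout peaks (626 regions) or adding X and Y (684) kept all 4 values within the count limit of 1.5 times or the intervals of the original. More double-knockout than wild-type peaks were found around 19.4% of regions in 200 kb windows and, in an alternative chosen after seeing the data, around 45.3% with lists of equal length, which makes this share depend on the length of the wild-type list.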

Other observations

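On the X chromosome, which the rule leaves out, 35 of 472 strong double-knockout peaks (7.42%, 5.22 to 10.2%) had no wild-type peak within 500 bp, against 3.14% on the autosomes. In the other direction 23 of 511 strong wild-type peaks of the X (4.50%, 2.87 to 6.68%) had no double-knockout peak within 500 bp. The labels do not state the sex of the animals, and its part in the X values was not tested.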
